A study of Oryza sativa Indica Group with 10 samples.

Results

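Transcript levels of 4 JAZ genes, JAZ9, JAZ10, JAZ11 and JAZ12, and of the transcription factor gene BHLH148 were followed across the 5 groups of a rice seedling study on OsbZIP48. The genes were picked by symbol or synonym in the platform annotation, with earlier results of these same arrays in view, and every probe set paired with them was taken. These are 5 of 17905 genes with a probe set and 6 of 57258 probe sets, since JAZ10 has 2. Their levels and differences are therefore given as a description, and the limma calls printed beside them are read as no evidence.

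RNA of seedlings grown in light (Indica rice, cultivar Pusa Basmati 1) was hybridised to 10 Affymetrix rice arrays, 2 biological replicates in each of 5 groups. The groups were seedlings over-expressing OsbZIP48, a bZIP transcription factor gene (OE), wild-type-looking knock-down seedlings (KD wild-type-like), knock-down seedlings whose phenotype was lethal (KD lethal), and controls carrying the vector B4NU or the RNA interference vector pANDA. All grew at 28 °C on the same medium, and all carried a transgene or its vector. Age was recorded as 10 days in the labels and as 7 days in the design text, and the tissue as whole seedling in the labels but as roots in the extraction protocol. Promoters, numbers of lines and whether replicates came from separate lines are not given in the sources used here. The pairing of vectors with transgenes is not labelled either: B4NU served here as the control of OE, and pANDA as that of both KD groups.

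JAZ proteins hold back the jasmonate response. They bind MYC-type basic helix-loop-helix factors and recruit co-repressors of the NINJA and TOPLESS type to jasmonate-responsive promoters. When the hormone jasmonoyl-isoleucine accumulates, the receptor COI1 binds JAZ proteins and marks them for degradation, which frees the factors. JAZ genes are themselves among the genes that jasmonate induces, so their transcripts are widely used as a readout of the pathway. Rice bHLH148 is a jasmonate-responsive basic helix-loop-helix factor that interacts with a JAZ protein and has been linked to drought tolerance.

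The annotation places JAZ9 (LOC4331832), JAZ11 (LOC4331833) and JAZ10 (LOC4331834) side by side on chromosome 3, in that order and with 0 annotated genes between neighbours. JAZ12 (LOC4348533) lies on chromosome 10, where 3 annotated genes separate it from JAZ13, which was chosen for comparison from the list of other JAZ genes. BHLH148 (LOC4334060) is on chromosome 3. JAZ9, JAZ10 and JAZ11 are similar neighbouring genes, and the brighter JAZ10 probe set has the suffix of sets that can bind transcripts of more than 1 gene. Signal shared between them was not tested.

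The B4NU and OE arrays shared a lowest value of 2.440 (log2), and the pANDA and KD arrays one of 2.441. Arrays of a set held 16934 to 20119 identical values and arrays of different sets 0, so the sets were taken as normalized separately, and a difference between vectors cannot be told apart from a difference between sets. On each array 65.7 to 68.9% of probe sets lay within 0.5 of the lowest value, a range called the floor here. Replicates correlated across probe sets at r = 0.950 in OE, 0.981 in KD lethal and 0.993 to 0.998 in the other groups. OE replicate 1 and KD lethal replicate 2 stood apart in the signal of the 3' end minus the 5' end of 3 housekeeping transcripts, at 0.24 and 0.996 (log2) against 1.53 to 2.44 on the other 8 arrays. The level of OsbZIP48 itself was not analysed here, as the annotation paired no probe set with it. Of 6 shoot markers and 6 root markers, 1 of each was at the floor on all arrays (RBCS1 and PHT1-11). The log2 of the summed signal of the shoot markers was 11.08 to 11.46 in KD lethal and 13.38 to 14.21 elsewhere, and that of the root markers 5.87 to 5.91 in KD lethal and 10.01 to 10.94 elsewhere. The shoot sums were also lower in OE, at 13.38 to 13.78, than in B4NU, at 14.21 on both arrays. The root sums of OE (10.01 to 10.90) and B4NU (10.64 to 10.73) overlapped. Of 5 seed storage markers, 3 were at the floor on all arrays (GLUA1, GLUA3 and RAG1), and the sums ran from 5.08 to 6.05 over all groups. In such bulk RNA, fewer cells of a type and less RNA per cell cannot be told apart.

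JAZ9 and JAZ12 were the members whose OE arrays reached the lowest value of the set. JAZ9 read 5.49 and 5.61 on the B4NU arrays and 2.44 and 2.57 on the OE arrays (log2 signal). On the pANDA arrays it read 8.21 and 8.22, on the KD wild-type-like arrays 6.80 and 6.90, and on the KD lethal arrays 5.20 and 5.07. No 2 groups overlapped, both OE arrays were at the floor, and the SD within a group was 0.01 to 0.09. JAZ12 read 7.25 and 7.40 with B4NU, 2.44 and 3.04 with over-expression and 9.79 and 9.62 with pANDA. Its KD wild-type-like arrays read 9.34 and 9.30, and its KD lethal arrays 7.87 and 8.27. Its groups did not overlap either, and 1 of its 2 OE arrays was at the floor. The share of all probe sets with 5 separate groups was not counted, so such separation is not read as a trait of the members. Between the vectors alone, 34% of all probe sets lay lower in B4NU without overlap.

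The probe set of JAZ10 with the higher mean read 6.65 and 6.78 in B4NU and 3.76 and 3.70 in OE. In the other set it read 11.12 on both pANDA arrays, 10.72 and 10.81 on the KD wild-type-like arrays, and 7.82 and 8.22 on the KD lethal arrays. The 5 groups were fully separate in this probe set. The dimmer probe set read 3.74 and 4.15 with B4NU, 3.74 and 2.74 with over-expression and 8.12 and 7.84 with pANDA. Its KD wild-type-like arrays read 7.89 and 7.28, and its KD lethal arrays 4.39 and 5.78. It shared the high level in pANDA and KD wild-type-like, but its OE and B4NU arrays overlapped, 1 OE array was at the floor, and its SD reached 0.98 in KD lethal.

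JAZ11 had a different order of groups. It read 7.32 and 7.45 with B4NU, 7.37 and 7.66 with pANDA, and 7.71 and 7.22 on the KD lethal arrays. The KD wild-type-like arrays read 6.72 and 7.0, and the OE arrays 3.69 and 4.02. The B4NU, pANDA and KD lethal arrays overlapped, the KD wild-type-like arrays lay just under them, and only the OE arrays stood far below. BHLH148 read 4.41 and 4.53 in B4NU and 2.78 and 2.77 in OE, both OE arrays being at the floor. On the pANDA arrays it read 9.87 and 10.01, on the KD wild-type-like arrays 9.43 and 9.36, and on the KD lethal arrays 6.80 and 7.68. The 5 groups were again separate, with OE lowest.

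**Figure D1:**
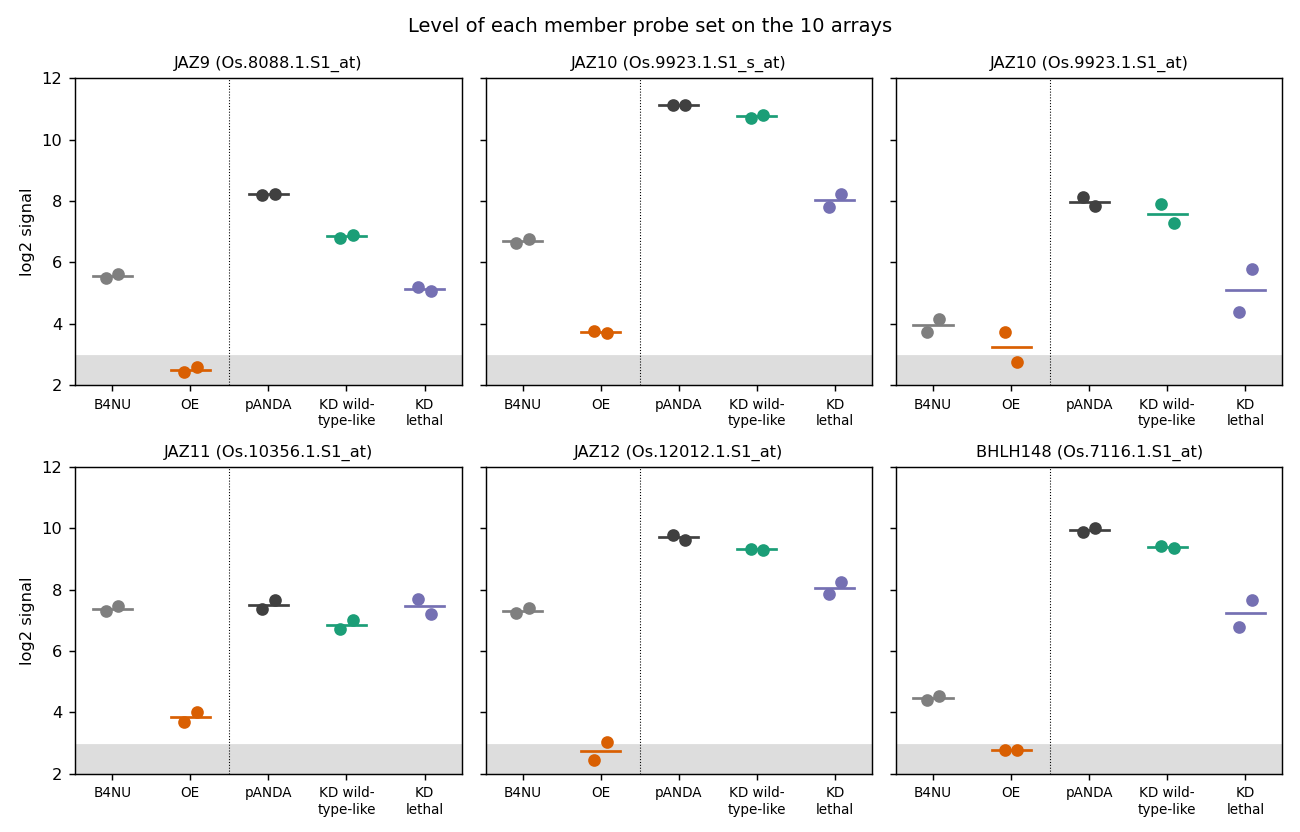
Log2 signal of the 6 member probe sets (1 panel each) by group; points are single arrays, horizontal lines group means, the grey band the floor, and the dotted line separates the 2 sets of arrays. The OE arrays are the lowest in every panel except for the tie of 3.74 in the dimmer JAZ10 probe set, and the pANDA arrays are the highest except for overlaps in JAZ11 and the dimmer JAZ10 probe set.

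Ordered by group mean, JAZ10 (brighter probe set), JAZ12 and BHLH148 ran from pANDA through KD wild-type-like, KD lethal and B4NU to OE, with no overlap between neighbours. JAZ9 ran the same way, but with B4NU (5.55 ± 0.08, SD, n = 2) above KD lethal (5.13 ± 0.09). For JAZ11 the order was pANDA (7.51 ± 0.20), KD lethal (7.46 ± 0.35), B4NU (7.39 ± 0.10), KD wild-type-like (6.86 ± 0.20) and OE (3.86 ± 0.23), and the first 3 did not differ beyond their spread. Steps between B4NU and the KD groups cross the separately normalized sets in all these orders.

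In OE, all 5 member genes read lower than in B4NU, with no overlap between the groups. Over all 57258 probe sets, 13.4% were lower in OE with no overlap. The summed shoot marker signal was also lower in OE than in B4NU, as given above, and its part in the result was not tested. JAZ12 differed by -4.58 ± 0.23 (log2, SE), with 1 of its OE arrays at the floor, and by -4.33 (20.2-fold) with that array raised to the top of the floor. JAZ11 differed by -3.53 ± 0.22 (11.6-fold) and JAZ10 by -2.98 ± 0.13 (7.90-fold). JAZ9 differed by -3.05 ± 0.07 and, with its OE arrays raised to the top of the floor, was at least 6.12-fold lower. BHLH148, at -1.70 ± 0.27 and at least 2.89-fold lower by the same bound, was not called by limma at an adjusted p under 0.05. The other 4 were called lower, as were 1.07% of all probe sets, while 0.327% of all were called higher in OE. As the genes were chosen with this contrast known, nothing is read from that count, nor from those of the comparisons that follow. The second JAZ10 probe set differed by -0.71 ± 0.57 and was not called. The calls depended on the other groups in the fit: with the 4 OE and B4NU arrays alone, limma called 0 of the 6 probe sets. Of the 6, 5 then had an unadjusted p under 0.05, as did 3411 of all 57258 probe sets. Without the 2 arrays that stood apart, the differences of the 5 genes lay between -4.28 and -1.70, and BHLH148 was then called as well.

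In KD lethal, JAZ9, JAZ10, JAZ12 and BHLH148 read lower than in pANDA, and JAZ11 did not. JAZ10 differed by -3.10 ± 0.13 (8.59-fold) in the brighter and -2.89 ± 0.57 (7.43-fold) in the dimmer probe set. The difference was -3.08 ± 0.07 (8.46-fold) for JAZ9, -2.70 ± 0.27 (6.50-fold) for BHLH148 and -1.63 ± 0.23 (3.10-fold) for JAZ12. These 4 genes were called, beside 5.4% of all probe sets called lower and 6.83% called higher. Their arrays lay below those of pANDA without overlap, as did 17.5% of all probe sets. JAZ11 differed by -0.05 ± 0.22 (1.04-fold), its arrays overlapped those of pANDA, and it was not called. The 3 neighbouring JAZ genes of chromosome 3 were thus all lower in OE, JAZ9 by a bound only, whereas in KD lethal JAZ9 and JAZ10 were lower and JAZ11 overlapped its control. Whether the OE and KD lethal differences of JAZ11 differ from each other was not tested. The summed shoot and root marker signals were both lower in KD lethal, as given above, and their part in the result was not tested. Without the arrays that stood apart, the differences were -3.01 for JAZ9, -3.31 for JAZ10, 0.20 for JAZ11, -1.83 for JAZ12 and -3.14 for BHLH148. The call of JAZ12 was lost without pANDA replicate 1, and that of the dimmer JAZ10 probe set without any 1 of 7 arrays. With the 4 KD lethal and pANDA arrays alone, BHLH148 (adjusted p = 0.121), JAZ12 (0.0922) and the dimmer JAZ10 probe set (0.206) were not called by limma.

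In KD wild-type-like, the member genes lay below pANDA, and JAZ9, with the largest difference, alone was called. JAZ9 differed by -1.37 ± 0.07 (2.58-fold), while JAZ10, JAZ11, JAZ12 and BHLH148 differed by -0.36 ± 0.13, -0.66 ± 0.22, -0.39 ± 0.23 and -0.54 ± 0.27. With JAZ10 read from its brighter probe set, the arrays of all 5 genes lay below those of pANDA without overlap, as did 14.7% of all probe sets. The dimmer JAZ10 probe set, at -0.39 ± 0.57, overlapped pANDA and was not called. Of all probe sets 0.145% were called lower and 0.0978% higher. With the 4 arrays of these groups alone, JAZ9 was not called.

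Set against each other, the knock-down phenotypes differed in the same 4 genes as KD lethal and pANDA, which share the KD lethal arrays. KD lethal minus KD wild-type-like was -2.75 ± 0.13 for JAZ10, -2.16 ± 0.27 for BHLH148, -1.71 ± 0.07 for JAZ9 and -1.25 ± 0.23 for JAZ12, all called and without overlap. Over all probe sets 4.72% were called lower and 6.48% higher, and 15.3% lay lower without overlap. JAZ11 went the other way by 0.61 ± 0.22, without overlap, as did 20.3% of all probe sets, and was not called. The dimmer JAZ10 probe set differed by -2.50 ± 0.57, which was not called. The call of JAZ12 was lost without any 1 of 7 arrays, namely either B4NU, pANDA or KD wild-type-like array or KD lethal replicate 1. With the 4 KD arrays alone, JAZ9 was called and JAZ10, JAZ12 and BHLH148 were not.

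**Figure D2:**
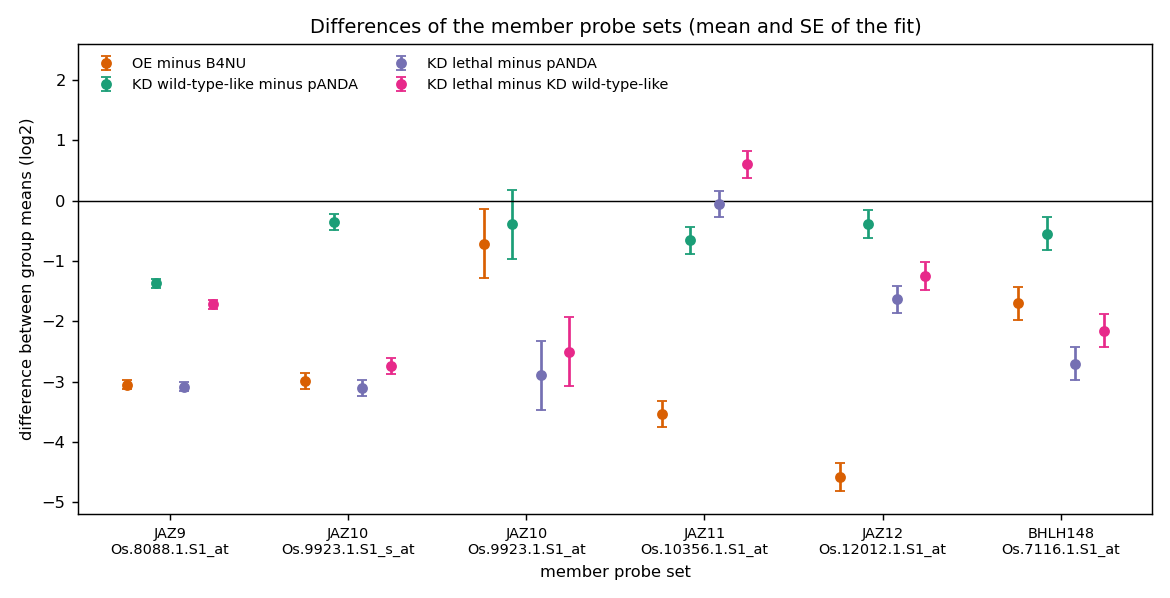
Difference between group means (log2, vertical axis) for each of the 6 member probe sets (horizontal axis) in 4 comparisons; points are the fitted differences and bars their SE. JAZ11 has an OE difference of -3.53 beside a KD lethal difference of -0.05, and the differences of KD wild-type-like from pANDA are all between -1.37 and -0.36.

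The vector controls themselves were far apart in the member genes. B4NU minus pANDA was -5.47 ± 0.27 for BHLH148 (44.3-fold), -4.41 ± 0.13 for JAZ10, -2.66 ± 0.07 for JAZ9 and -2.38 ± 0.23 for JAZ12, and these 4 were called. Over all probe sets 2.84% were called lower and 6.95% higher in B4NU, and 34% lay lower without overlap. JAZ11, at -0.13 ± 0.22, overlapped and was not called. The ranks within an array went the same way, but they too cannot tell a vector difference from a difference between the sets. BHLH148 stood at percentiles 77.6 and 78.5 of all probe sets on the B4NU arrays and at 99.1 and 99.2 on the pANDA arrays. JAZ10 (brighter probe set) stood at 91.5 and 92.1 against 99.8 on both, and JAZ11 at 94.2 and 94.6 against 94.9 and 95.7. JAZ9 stood at 84.9 and 85.6 against 96.9 and 97.0, and JAZ12 at 93.9 and 94.4 against 99.0 and 98.8. Over the 19760 probe sets with both arrays of at least 1 vector above the floor, the median difference was 0.29.

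The choice of vector set the sign of several KD differences. Against B4NU instead of pANDA, KD lethal differed by 2.77 in BHLH148, 1.31 in JAZ10 and 0.75 in JAZ12, and KD wild-type-like by 4.92, 4.05 and 2.00 in the same genes and by 1.30 in JAZ9. For JAZ9, KD lethal remained lower than either vector. OE lay below both vectors in all 5 genes, with BHLH148 at -7.16 against pANDA. The comparisons with the other vector cross the sets of arrays.

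**Figure D3:**
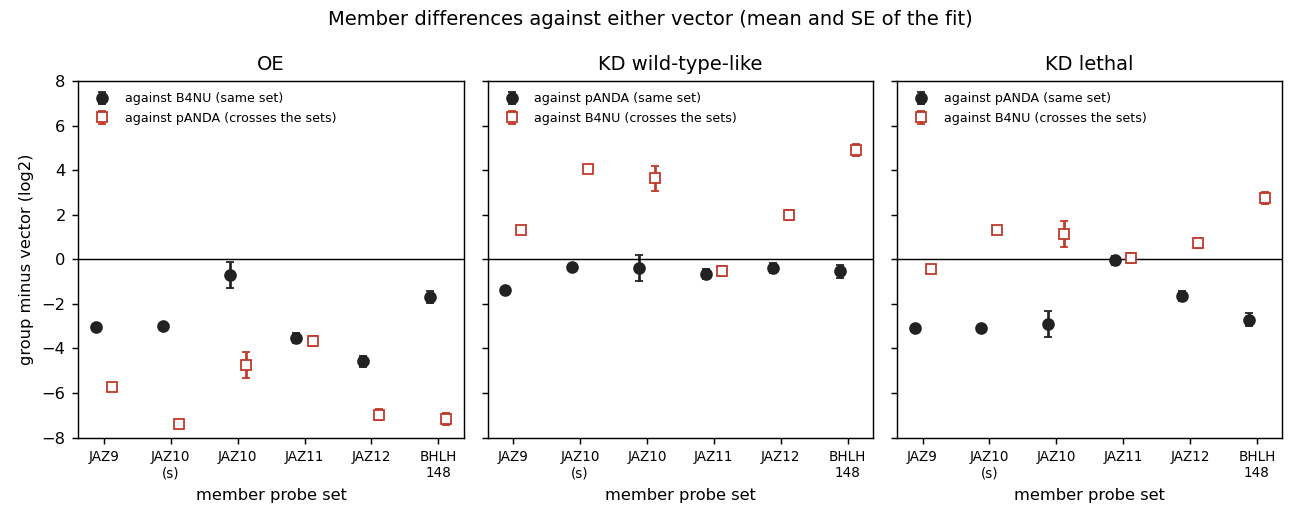
Difference of OE (left), KD wild-type-like (middle) and KD lethal (right) from each vector control (log2, vertical axis) for the member probe sets, with "(s)" for the brighter JAZ10 probe set; filled circles use the vector of the same set of arrays, open squares the other vector, and bars are the SE of the fit. OE is below 0 against both vectors, while BHLH148 in KD lethal is at -2.70 against pANDA and 2.77 against B4NU.

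Among the members, the pattern over the 10 arrays, after centring each probe set within its set of arrays, was most alike for JAZ10 and BHLH148 (Pearson r = 0.973) and for JAZ9 and JAZ10 (0.961). JAZ11 was the least like the others, with r = 0.426 to BHLH148, 0.581 to JAZ10 and 0.686 to JAZ9, but 0.887 to JAZ12. These values describe 10 arrays in 5 groups that share their replicates and normalization, and they carry no p. Other genes were ranked among 1595 named genes with a range of at least 1 (log2) within a set and 1 group above the floor. That number was counted before the members were left out of the ranking. JAZ13 (0.988) and JAZ6 (0.987) had the pattern most like JAZ10, followed by ISAP1 (0.980). JAZ13 was also first for BHLH148 (0.986), followed by GRXS5 (0.979) and ARGOS (0.976). The first gene was ISAP1 (0.980) for JAZ9, CM-LOX1 (0.983), a lipoxygenase gene also named LOX8, for JAZ12, and NAC068 (0.958) for JAZ11. Next came BGLU34 (0.980) and OsPP2C61 (0.971) for JAZ9, CDPK1 (0.982) and BBD1 (0.974) for JAZ12, and DXPS (0.947) and MAPKK1 (0.938) for JAZ11.

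The remaining JAZ family showed which other repressor genes moved. Its list, like those of the other jasmonate and BHLH genes below, was drawn up with earlier results of these data known. Their calls are given as a description. Of the 9 other JAZ genes with a probe set, 2 fell and 0 rose in OE, all 9 differences were negative, and the median was -0.71. Over the 19481 probe sets with both arrays of OE or of B4NU above the floor, 65.5% of the differences were negative, with a median of -0.20, and limma called 3.02% lower and 0.642% higher. JAZ13 (LOC4348531), on chromosome 10 like JAZ12, read 6.08 and 6.49 in B4NU and 3.10 and 3.44 in OE. It fell by 3.02 ± 0.20 (limma, adjusted p = 0.00499). JAZ6 fell by 1.69 ± 0.18 (adjusted p = 0.0199), a call that was lost without either B4NU or either pANDA array and with the replicate block (adjusted p = 0.0581). With the 4 OE and B4NU arrays alone, neither JAZ13 (adjusted p = 0.299) nor JAZ6 (0.262) was called by limma. In KD lethal 2 fell and 1 rose against pANDA, with a median of -0.11. Over the 19567 probe sets with both arrays of KD lethal or of pANDA above the floor, the median was 0.16, and limma called 14.7% lower and 18.5% higher. JAZ13 read 11.17 and 11.25 in pANDA and 6.89 and 7.19 in KD lethal and fell by 4.18 ± 0.20 (adjusted p = 0.000304), and JAZ6 fell by 1.53 ± 0.18 (adjusted p = 0.00493). JAZ8 read 6.17 and 6.23 in pANDA, 5.21 and 5.26 in KD wild-type-like and 7.87 and 8.23 in KD lethal, a rise of 1.85 ± 0.18 over pANDA (adjusted p = 0.00295). With the 4 KD lethal and pANDA arrays alone, JAZ13 was called, and JAZ6 (adjusted p = 0.0909) and JAZ8 (0.0661) were not called by limma. In KD wild-type-like limma called 0 of the 9, and 3 were lower at an unadjusted p under 0.05. Of all 57258 probe sets, 2819 had such a p in this comparison, in either direction. Over the 18227 probe sets with both arrays of KD wild-type-like or of pANDA above the floor, limma called 0.143% higher and 0.291% lower. JAZ13 also differed between the vectors, by -4.93 ± 0.20, and against B4NU its KD lethal difference was 0.75 and not called. Nor was that of JAZ6 against B4NU, at -0.17.

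**Figure D4:**
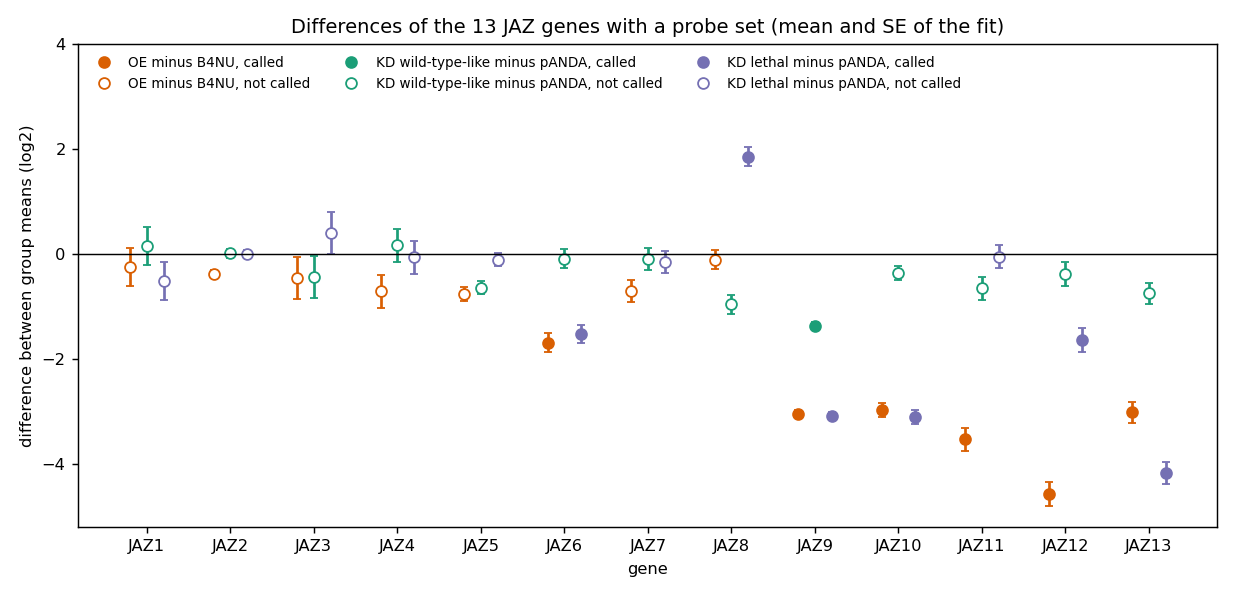
Difference from the vector control of the same set of arrays (log2, vertical axis) for the 13 JAZ genes with a probe set (horizontal axis), the 4 members included; filled points were called by limma, open points were not, and bars are the SE of the fit. JAZ6, JAZ9, JAZ10, JAZ12 and JAZ13 were called lower in both OE and KD lethal, JAZ11 was called in OE alone of these 3 comparisons, and JAZ8 was higher in KD lethal.

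The other jasmonate genes were counted from lists drawn up by role, also with earlier results of these data known. Their counts stand beside the shares of probe sets above the floor given for the JAZ family. Of 8 genes of jasmonate perception and co-repression, limma called 0 in OE, where the median was -0.19 and 2 were higher at an unadjusted p under 0.05. Of all 57258 probe sets, 4957 had such a p in OE, in either direction. In KD lethal 3 of the 8 rose and 0 fell, with a median of 1.11, beside 18.5% called higher and 14.7% lower among probe sets above the floor. They were the receptor genes COI1A (1.16 ± 0.12, adjusted p = 0.0033) and COI1B (1.11 ± 0.14, adjusted p = 0.0059) and TPR3 (2.03 ± 0.19, adjusted p = 0.0023), a gene of the TOPLESS co-repressor family. With the 4 KD lethal and pANDA arrays alone, none of the 3 was called, with adjusted p of 0.0688 to 0.0756, and COI1B differed from B4NU by -0.10. Of 14 synthesis genes, 2 fell and 0 rose in OE, namely CM-LOX1 and CM-LOX2 (LOX9), which encode lipoxygenases. CM-LOX1 read 6.62 and 6.90 in B4NU and was at the floor on both OE arrays, at least 14.1-fold lower. CM-LOX2 was at least 6.14-fold lower in OE in 1 of its 3 probe sets, and the other 2 were at the floor in every group. Against pANDA its OE difference was -0.28 and not called (limma, adjusted p = 0.338). With the 4 OE and B4NU arrays alone, neither lipoxygenase gene was called. In KD lethal 4 synthesis genes rose and 6 fell, among them CM-LOX2, which was at the floor in pANDA and at least 5.87-fold higher in KD lethal, and the allene oxide synthase gene AOS1, which fell by 2.10 ± 0.12. Of those that fell, AOS3, AOS4 and LOX3 were at the floor on both KD lethal arrays. They were at least 1.00-, 1.62- and 1.14-fold lower, and 1 pANDA array of AOS3 was at the floor too. Against B4NU the KD lethal difference of CM-LOX2 was -0.063, and with the 4 KD lethal and pANDA arrays alone its call was lost (limma, adjusted p = 0.0529). The transcription factor gene JAMYB and the GH3.6 gene, of a family of hormone-conjugating enzymes, were not called in OE or in either KD group. Each was the only gene read from its list, which held 10 names for transcription factors and 16 for turnover. The synthesis list held 40 names and the perception list 13, so the counts cover only part of each list. Taking all 33 other jasmonate genes together, OE had 4 that fell and 0 that rose (median -0.25). KD lethal had 8 that rose and 8 that fell (median 0.07), the falls of AOS3, AOS4 and LOX3 at the floor included. In KD wild-type-like limma called 0 (median -0.09), with 2 higher and 7 lower at an unadjusted p under 0.05. Of all 57258 probe sets, 2819 had such a p in KD wild-type-like, in either direction.

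BHLH148 was set beside 11 other BHLH genes with a probe set. In OE 1 of them rose, BHLH063 by 2.63 ± 0.22, and 0 fell. Among probe sets above the floor, 0.642% were called higher and 3.02% lower in OE. In KD lethal BHLH063 and BHLH175 rose and BHLH003 and BHLH172 fell. Among probe sets above the floor, 18.5% were called higher and 14.7% lower in KD lethal. BHLH175 rose by 1.21 ± 0.23 in its brightest probe set. A dimmer probe set of BHLH175 was called lower (-0.57 ± 0.12, both KD lethal arrays at the floor), and the dimmest was at the floor in both groups. BHLH172 was at the floor on both KD lethal arrays and on 1 pANDA array, and was at least 1.06-fold lower. The median difference of the 11 genes was 0 in OE and -0.04 in KD lethal. In KD wild-type-like limma called 0 of the 11, and 1 was higher and 1 lower at an unadjusted p under 0.05. Such a p was found there for 2819 of all 57258 probe sets, in either direction. With the arrays of the 2 groups alone, the calls of BHLH063 in OE and of BHLH063 and BHLH175 in KD lethal were lost, and 4 of the 11 were at the floor in both groups in OE and in either KD group against its vector.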

How the data were processed

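Values were taken from 1 table of 57381 probe sets by 10 arrays, which the authors deposited as log2 signals, by their range. The tools were Affymetrix Expression Console 1.4.1.46 and GCOS, per the submitters' processing notes. How the arrays were summarized and normalized is not stated there, and no further normalization was applied. Without 123 controls, 57258 probe sets were tested.

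The platform annotation gave 22436 probe sets 1 gene, 95 several and 34727 none. Names were updated through RefSeq assembly ASM3414082v1, used for names and neighbours only. The members, lists and tests were chosen with earlier results of these data known. Of the list names, 52 matched no gene or more than 1 and were dropped. A gene was read from its probe set with the highest mean. Named genes are all members, up to 3 called genes of a list with the smallest p per comparison, and the 3 likest genes of each member. AOS3, BHLH172, JAMYB and GH3.6 lie outside this rule and were named after their values were seen.

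limma 3.58.1 in R 4.3.3 fitted 1 coefficient per group over all arrays (two-sided, 5 residual degrees of freedom, eBayes with no trend). Probe sets were called at a Benjamini-Hochberg adjusted p under 0.05 over all tested probe sets. The fit was tested on simulated data. Separate cultures or plants behind the replicates are not labelled, so p-values measure the spread between these arrays, whose number limits precision. For a group at the floor, its mean was raised to 0.5 above the lowest value and the fold given as a bound. Alternatives were the arrays of 2 groups alone, a replicate block, quantile normalization within sets, a filter on dim probe sets, an intensity trend, arrays left out and the other vector.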

Additional observations from a re-analysis of the deposited data

How the results depend on the processing

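With the arrays of the 2 groups alone, the probe sets called were 17 for OE, 2786 for KD lethal, 20 for KD wild-type-like, 1191 for KD lethal against KD wild-type-like and 19228 for the vector pair, instead of 802, 7000, 139, 6408 and 5610. The member probe sets called were then 0, 2, 0 and 1 in the first 4 comparisons, instead of 4, 5, 1 and 4, and the other jasmonate genes 0, 3, 1, 3 and 18, instead of 4, 16, 0, 11 and 10. At an unadjusted p under 0.05, limma gave 5 member probe sets and 9 other jasmonate genes for OE and 4 member probe sets for KD wild-type-like. Of all 57258 probe sets, 3411 had such a p for OE and 4813 for KD wild-type-like. Without OE replicate 1 and KD lethal replicate 2 together, the probe sets called were 4003, 12596, 230, 12345 and 15072, with 1 other jasmonate gene for KD wild-type-like, 17 for the KD pair and 18 for the vector pair. With dim probe sets filtered out, 1434 were called for OE, 45 for KD wild-type-like and 2102 for the vector pair.

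Leaving out each of the 10 arrays in turn, the probe sets called ranged from 349 to 12772 for OE, 4892 to 9546 for KD lethal, 67 to 2380 for KD wild-type-like, 4378 to 8927 for the KD pair and 3651 to 10891 for the vector pair. The OE count was lowest without either pANDA array and highest without OE replicate 2. The KD wild-type-like count was lowest without either B4NU array and highest without KD wild-type-like replicate 1. The vector count was lowest without B4NU replicate 2 and highest without either OE array. Other jasmonate genes called ranged from 3 to 11 in OE (highest without OE replicate 2), 12 to 16 for KD lethal, 0 to 2 for KD wild-type-like (highest without either B4NU array), 10 to 14 for the KD pair and 6 to 13 for the vector pair (lowest without B4NU replicate 2 or pANDA replicate 2). Member probe sets called ranged from 4 to 5 for OE, 3 to 5 for KD lethal (lowest without pANDA replicate 1), 3 to 5 for the KD pair and 4 to 5 for the vector pair, and stayed at 1 for KD wild-type-like. BHLH148 in OE (adjusted p = 0.0666 with all arrays) was called without OE replicate 2 or either KD lethal array, and its adjusted p ranged from 0.00383 to 0.224 over the 10 fits. The cause was not tested.

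With the other vector as control, 7865 probe sets were called for OE and 5756 for KD wild-type-like, the member probe sets called were 3 for KD lethal and 5 for KD wild-type-like, and the other jasmonate genes 13 in OE and 8 for KD wild-type-like. A change of sign was counted only where at least 1 of the compared differences was called. In KD lethal the sign turned for both JAZ10 probe sets (1.31 and 1.14), JAZ12 (0.75), BHLH148 (2.77), JAZ13 (0.75), COI1B (-0.10) and LOX9 (-0.063). JAZ11, called against neither vector, was not counted, with a KD lethal mean of 7.46 between those of pANDA (7.51) and B4NU (7.39). In KD wild-type-like it turned for JAZ9 (1.30), both JAZ10 probe sets (4.05 and 3.64), JAZ12 (2.00) and BHLH148 (4.92). This alternative crosses the separately normalized sets, and cannot be told apart from a difference between them.

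The labels state no pairing, so replicate numbers were taken as sample names only. Replicate differences of 2 groups correlated at r = -0.29 to 0.08, which cannot show that pairing is absent. With the replicate block, 423 probe sets were called for OE and 49 for KD wild-type-like, and the dimmer JAZ10 probe set lost its call for KD lethal. With the pairing crossed, an alternative chosen after seeing the data, 471 probe sets were called for OE and 5538 for the KD pair. Between the KD groups JAZ11 (0.61, limma, adjusted p = 0.0221) and the dimmer JAZ10 probe set (0.0444) were then called and JAZ12 (0.0563) was not. Quantile normalization within sets and an intensity trend kept every total count within 1.5 times the reported one. After quantile normalization 364 of the 1019 calls for OE were higher, against 187 of 802, and 3 of the 10 other jasmonate genes called for the vector pair, against 5 of 10. Of the 30 member differences both settings left all with the same sign and call, except the dimmer JAZ10 probe set for the KD pair, called with the trend. With 2 arrays a group, values at the floor have no order.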
